A study of Oryza sativa Indica Group with 226 samples.

Results

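The 7 named rice genes whose transcript levels segregated strongly among inbred lines of 1 cross were TAC1, EIL1, TF1, SPO11-4, ADPase (the apyrase gene APY3), STLP5 and OrysaZxb. They are 7 of 14621 genes with a tested probe set, and each is read from 1 probe set annotated to a single gene. They were chosen by their measured values, a large parental difference and a high repeatability between the 2 arrays of a line, so those values are given as descriptions with no test. The study profiled shoots of etiolated indica rice seedlings on 226 Affymetrix rice arrays to follow variation in transcript level through a cross. The groups were the variety Minghui 63 (3 arrays), the variety Zhenshan 97 (3 arrays) and 110 recombinant inbred lines (RILs) derived from these varieties (2 arrays per line, labelled biological replicates 1 and 2). All groups were untreated and shared the same growth, with a soak of the seeds in water (48 h at 25 °C), germination at 35 °C and a further 72 h of growth at 25 °C in darkness. The number of seedlings behind an array is not given in the sources used here, and the number of arrays, 3 per parent and 2 per line, limits the precision.

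A recombinant inbred line is fixed, at nearly every position of its genome, for the allele of 1 parent or the other. Where a difference in transcript level between the parents is inherited through a single place in the genome, the lines are expected to fall into a pair of classes, each near the level of 1 parent. Genes that lie close together are then inherited together, and genes on different chromosomes independently.

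The 7 genes have different known roles. TAC1 promotes a wide tiller angle and belongs to the IGT family, which includes the gravitropism gene LAZY1. EIL1 is an EIN3-like transcription factor of ethylene signalling. TF1 is a homeodomain-leucine zipper protein of class IV, a class known for its part in the epidermis. SPO11-4 belongs to the family of SPO11 and the A subunit of topoisomerase VI, enzymes that cut both strands of DNA. APY3, listed in the annotation with the synonym ADPase, is an apyrase, an enzyme that removes phosphate from nucleoside tri- and diphosphates. No role is given here for STLP5 and OrysaZxb.

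Deposited log2 values ran from 1.16 to 14.35, with array medians from 4.77 to 5.07. All 5 measured shoot markers (for example rbcS, CAB2R and PORA) had means from 10.75 to 12.76, while of 4 root markers 3 lay above the range of the Tag control probe sets (2.40 to 4.63), with means of the 4 from 3.53 to 8.45. Of 4 endosperm and embryo markers 1 (GluA2) was above that range, and the lowest mean was 2.30. Over 335 strongly segregating probe sets, 105 of 110 replicate 1 arrays correlated best with the replicate 2 array of their own line, and the other 5 with the array of a line nearly identical to theirs. These probe sets were chosen for a parental difference and for repeatability between the same arrays, which raises the correlations within a line, so this is a description. The arrays are of whole shoots, so fewer cells of a type and less RNA per cell cannot be told apart.

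All 7 genes passed the filter on low values (a mean of at least 5 over all arrays). Between the parents 10.5% of the 27735 tested probe sets passed limma's test at an adjusted p under 0.05, and between the lines 6.01% passed the F test. All 7 genes passed both, which follows from how they were chosen. The F test has no block for the replicate number, so a shift between replicate numbers counts in it as variation within lines. In what follows a line belongs to the class of the parent on whose side of the mid-parent value (the mean of the parental means) its own mean of 2 arrays lies. The class is a description of the measured level, not a genotype.

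TAC1 (chromosome 9) had the widest parental difference of the 7 genes. Its log2 values were 10.70, 10.77 and 10.83 in Minghui 63 and 5.23, 5.74 and 4.85 in Zhenshan 97, a log2 difference of 5.49 (SE 0.229). Among the lines 46 lay from 5.42 to 7.10 with a median of 6.02, and 64 lay from 9.44 to 10.72 with a median of 10.11. No line mean fell in the 2.34 log2 units between 7.10 and 9.44, so the classes did not meet. Most lines lay near 1 parent, but 2 lines of the low class, RIL103 (7.10) and RIL137 (6.83), lay closer to the mid-parent value of 8.02 than to the Zhenshan 97 mean of 5.27. All lines stayed inside the parents, with 0 lines above the higher parent and 0 below the lower one, and the class medians were 4.08 apart. The Minghui 63 class held 58.2% of lines (95% Clopper-Pearson interval 48.4% to 67.5%).

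EIL1 (LOC4332697, chromosome 3) went the other way. It measured 4.09, 4.32 and 4.28 in Minghui 63 and 7.95, 8.06 and 9.09 in Zhenshan 97, a log2 difference of -4.14 (SE 0.300). The 58 lines of the low class ran from 3.80 to 6.30 with a median of 4.28, and the 52 lines of the high class from 6.68 to 9.26 with a median of 7.74. The low class median and the Minghui 63 arrays were no higher than the Tag controls reach (4.63), so the difference may be a lower bound. In this class 57 lines were at or below 4.82, and 1 line, RIL139, lay at 6.30, close to the mid-parent value.

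The name EIL1 is shared in the annotation by a pair of neighbouring genes, EIL1A (also MHZ6) and EIL1B, with 0 genes between them, and the segregating probe set is the one annotated to EIL1B. The level of EIL1A was 11.83 ± 0.0981 (SD, n = 3) in the Minghui 63 arrays and 11.51 ± 0.0503 in those of Zhenshan 97 with the brighter of its own 2 probe sets. Its repeatability between lines was -0.268 (F test adjusted p = 1.0) and its line means ran from 11.20 to 11.88. The second EIL1A probe set had a repeatability of 0.033, and 3 probe sets shared by both genes and a further one had from -0.303 to -0.106. Neither EIL1A probe set followed the segregating probe set over the lines (r = 0.051 and 0.004, n = 110 lines). The 3 shared probe sets did not follow it either (r = -0.059, -0.047 and -0.137). The 2 classes were thus seen in 1 probe set only, and whether it reports the level of EIL1B was not tested.

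TF1 (LOC4325864, chromosome 1) measured 5.54, 5.73 and 5.32 in Minghui 63 and 7.79, 8.08 and 7.20 in Zhenshan 97, a log2 difference of -2.16 (SE 0.244). The mid-parent value of 6.61 put 71 lines in the low class, from 5.0 to 6.60, and 39 in the high class, from 6.70 to 7.52. The empty stretch between the classes lay lower, from 5.88 to 6.59, and divided the lines into 67 and 43. The 4 lines between the stretch and the mid-parent value lay at the lower edge of the upper group. The Minghui 63 class was thus 64.5% of lines by the mid-parent value (interval 54.9% to 73.4%) and 60.9% (51.1% to 70.1%) by a 2-means threshold, set midway between the centres of the best split of the line means into 2 groups. The high class median of 7.13 lay below all 3 Zhenshan 97 arrays.

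SPO11-4 (LOC4352826, chromosome 12) measured 7.88, 8.01 and 8.30 in Minghui 63 and 9.82, 9.70 and 10.33 in Zhenshan 97, a log2 difference of -1.89 (SE 0.210), the smallest of the 7 genes. The 58 lines of the low class ran from 7.03 to 8.45 (median 7.60) and the 52 of the high class from 9.19 to 10.67 (median 9.80). The class medians were 2.20 apart, more than the parents were. Of the 58 low lines 43 lay below every parental array, so most of the low class was under the lower parent, while 2 lines lay above every parental array. Other genes had such lines too, with 21 below every parental array for OrysaZxb, 13 for EIL1 and fewer for the rest.

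ADPase, the apyrase gene APY3 (LOC4351367, chromosome 12), measured 8.67, 8.98 and 9.24 in Minghui 63 and 6.03, 6.41 and 7.26 in Zhenshan 97, a log2 difference of 2.40 (SE 0.320). Its line means formed no separate classes. They ran from 5.87 to 9.26 with a median of 8.15, and the widest empty stretch between neighbouring line means, leaving aside the lowest and the highest lines, was 0.09. The mid-parent value of 7.76 placed 64 lines in the Minghui 63 class and the 2-means threshold of 7.87 placed 61. A 2-class description therefore has no natural boundary for ADPase, unlike the other 6 genes.

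STLP5 (LOC4350756, chromosome 11) measured 9.0, 9.11 and 9.04 in Minghui 63 and 6.48, 5.92 and 6.75 in Zhenshan 97, a log2 difference of 2.67 (SE 0.220). The 39 lines of the low class ran from 5.72 to 6.96 (median 6.44) and the 71 of the high class from 7.79 to 8.84 (median 8.36), with no line mean between 6.96 and 7.79. Every line mean of the high class lay below all 3 Minghui 63 arrays. This did not hold for replicate 1 arrays alone, which reached 9.28 in this class, while replicate 2 arrays reached 8.88. The Minghui 63 class held 64.5% of lines (54.9% to 73.4%).

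OrysaZxb (LOC4333434, chromosome 3) measured 5.48, 5.36 and 5.07 in Minghui 63 and 9.75, 9.46 and 8.95 in Zhenshan 97, a log2 difference of -4.08 (SE 0.231). The 44 lines of the low class ran from 4.30 to 6.35 (median 5.08) and the 66 of the high class from 8.84 to 10.03 (median 9.43). The empty stretch of 2.49, from 6.35 to 8.84, was slightly wider than that of TAC1 (2.34). OrysaZxb was the gene with the smallest Minghui 63 class, 40.0% of lines (30.8% to 49.8%).

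**Figure D1:**
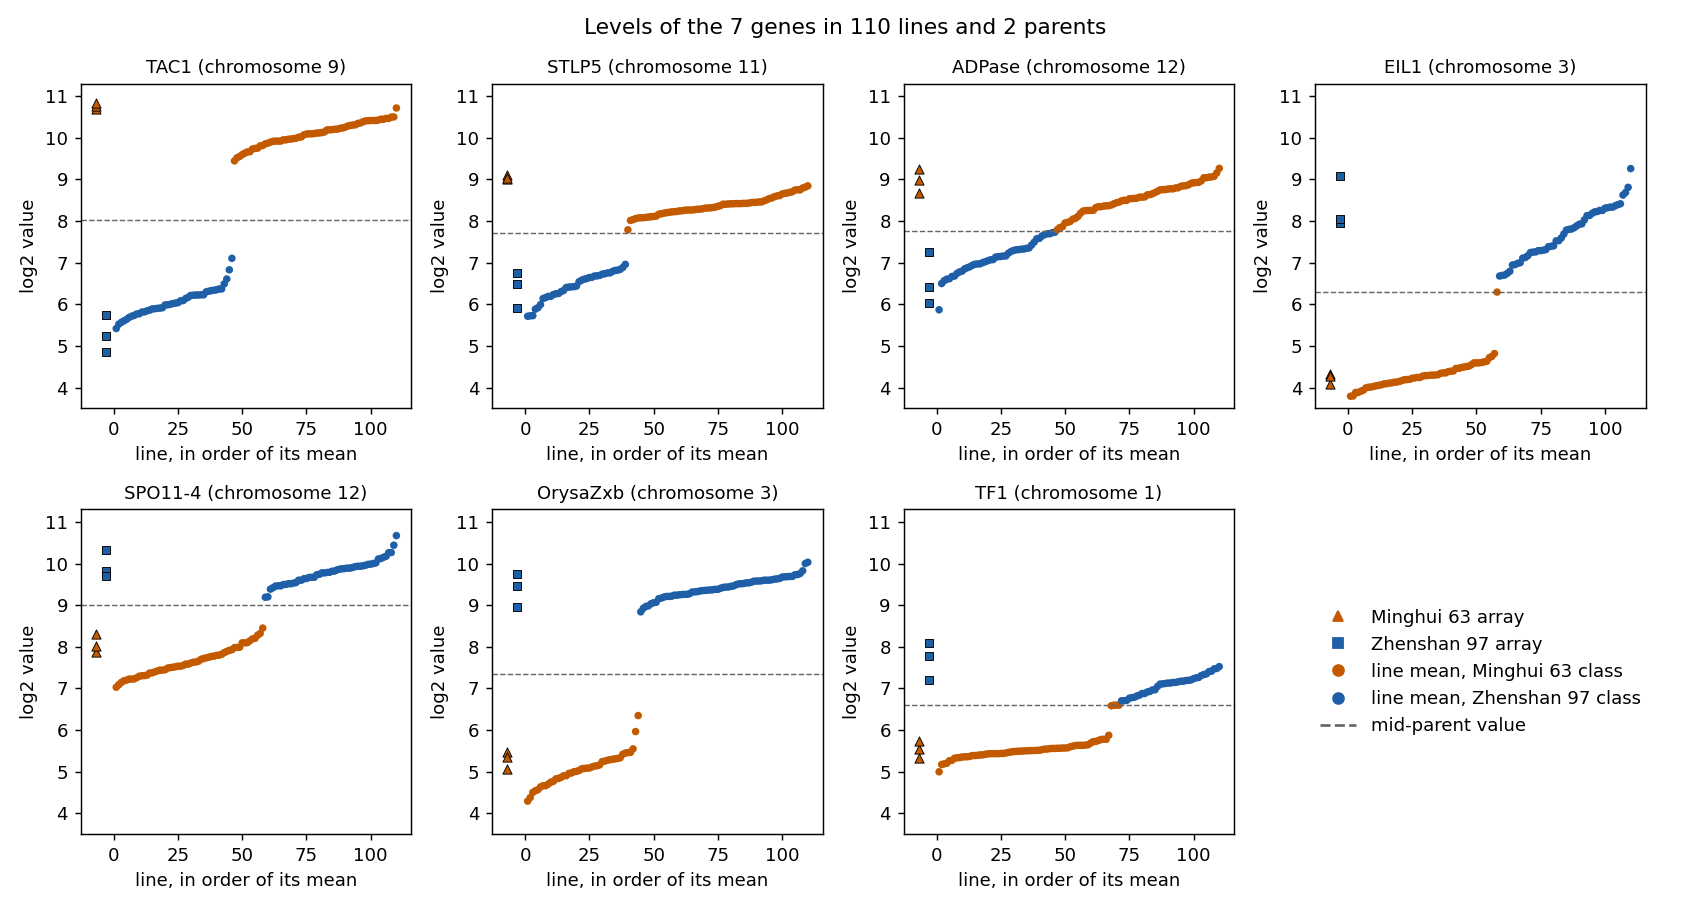
Mean log2 value of 2 arrays for each of 110 lines, in rising order (circles), with the 3 arrays of each parent at the left of each panel (triangles, Minghui 63; squares, Zhenshan 97) and the mid-parent value (dashed). TAC1 and OrysaZxb leave a stretch of over 2 log2 units empty, while ADPase runs on without a break.

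The intervals of the class shares include equal shares for TAC1, ADPase, EIL1 (52.7%, 43.0% to 62.3%) and SPO11-4 (52.7%, the same interval). They lie above equal shares for STLP5 and TF1 and below them for OrysaZxb. For STLP5 the share was 64.5% with replicate 1 arrays alone and 50.9% with replicate 2 arrays alone, and the widest shift of any other gene was in TF1, 67.3% and 62.7%. These intervals cover counting error only and take each line as separate. Over 329 segregating probe sets from all chromosomes 11 pairs of lines were nearly identical, with r of 0.810 or more against at most 0.592 in other pairs. With 1 line of each of these pairs left out, 99 lines gave shares from 40.4% (OrysaZxb) to 63.6% (TF1).

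The classes of nearly identical lines were also compared, as a description. The genes were chosen for a high repeatability within lines, so a like class in near duplicates is likely from the start and is no independent check. Over 85 segregating probe sets on chromosomes that hold none of the 7 genes, 9 pairs of lines had an r of 0.928 or more, against at most 0.799 in all others. In these pairs 62 of 63 comparisons (98.4%) put both lines in the same class, against 51.4% in the 5986 other pairs. The exception was ADPase in RIL016 and RIL017. Lines alike elsewhere in the genome were thus mostly of the same class at the 7 genes as well. The 63 comparisons repeat the same 7 genes over 9 pairs and are not separate observations.

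The 2 arrays of a line were set against the mid-parent value separately. Both lay on the same side in 109 of 110 lines for TAC1 and OrysaZxb, in 108 for SPO11-4 and in 105 for EIL1. The number was 101 for TF1, 99 for ADPase and 95 for STLP5. Repeatability, which compares the mean square between lines with that within lines (their difference over their sum), was 0.949 for TAC1, 0.928 for OrysaZxb, 0.849 for SPO11-4, 0.786 for EIL1, 0.750 for TF1, 0.744 for ADPase and 0.627 for STLP5. Of all tested probe sets 1.80% reached at least 0.627.

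The disagreements were of different kinds. For STLP5 the replicate 2 array was the lower one in all 15 discordant lines. Replicate 1 was between 8.56 and 9.18, inside the high class, and replicate 2 between 7.0 and 7.70, under the mid-parent value of 7.72. In replicate 2 arrays alone the classes of STLP5 overlapped slightly, with the low class up to 7.10 and the high class from 7.0. With a 2-means threshold of 7.40 the arrays agreed in 106 lines, and with a threshold set within each replicate number in 108, a setting chosen after the values were seen. For TF1 the replicate 2 array was higher in 7 of 9 discordant lines, and the threshold within each replicate number gave 108 lines. For ADPase the discordant lines went both ways (6 lower and 5 higher in replicate 2), and the threshold within each replicate number gave 95, fewer than before.

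Line RIL103 stood apart, with arrays on opposite sides for 3 genes. Its replicate 1 and replicate 2 arrays were at 5.97 and 8.24 for TAC1, at 5.14 and 7.56 for OrysaZxb and at 7.80 and 7.64 for ADPase. For TAC1 and OrysaZxb the second array lay in the stretch where no line mean was found, and RIL103 was the only discordant line of both genes. Without RIL103 the class shares moved by less than their intervals. Over the 335 probe sets chosen for repeatability, its arrays correlated with each other at 0.824, the fifth lowest value of the 110 lines (lowest 0.788, median 0.916). RIL066, RIL139 and RIL206 were discordant for 2 genes each, and 35 lines for 1 gene.

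**Figure D2:**
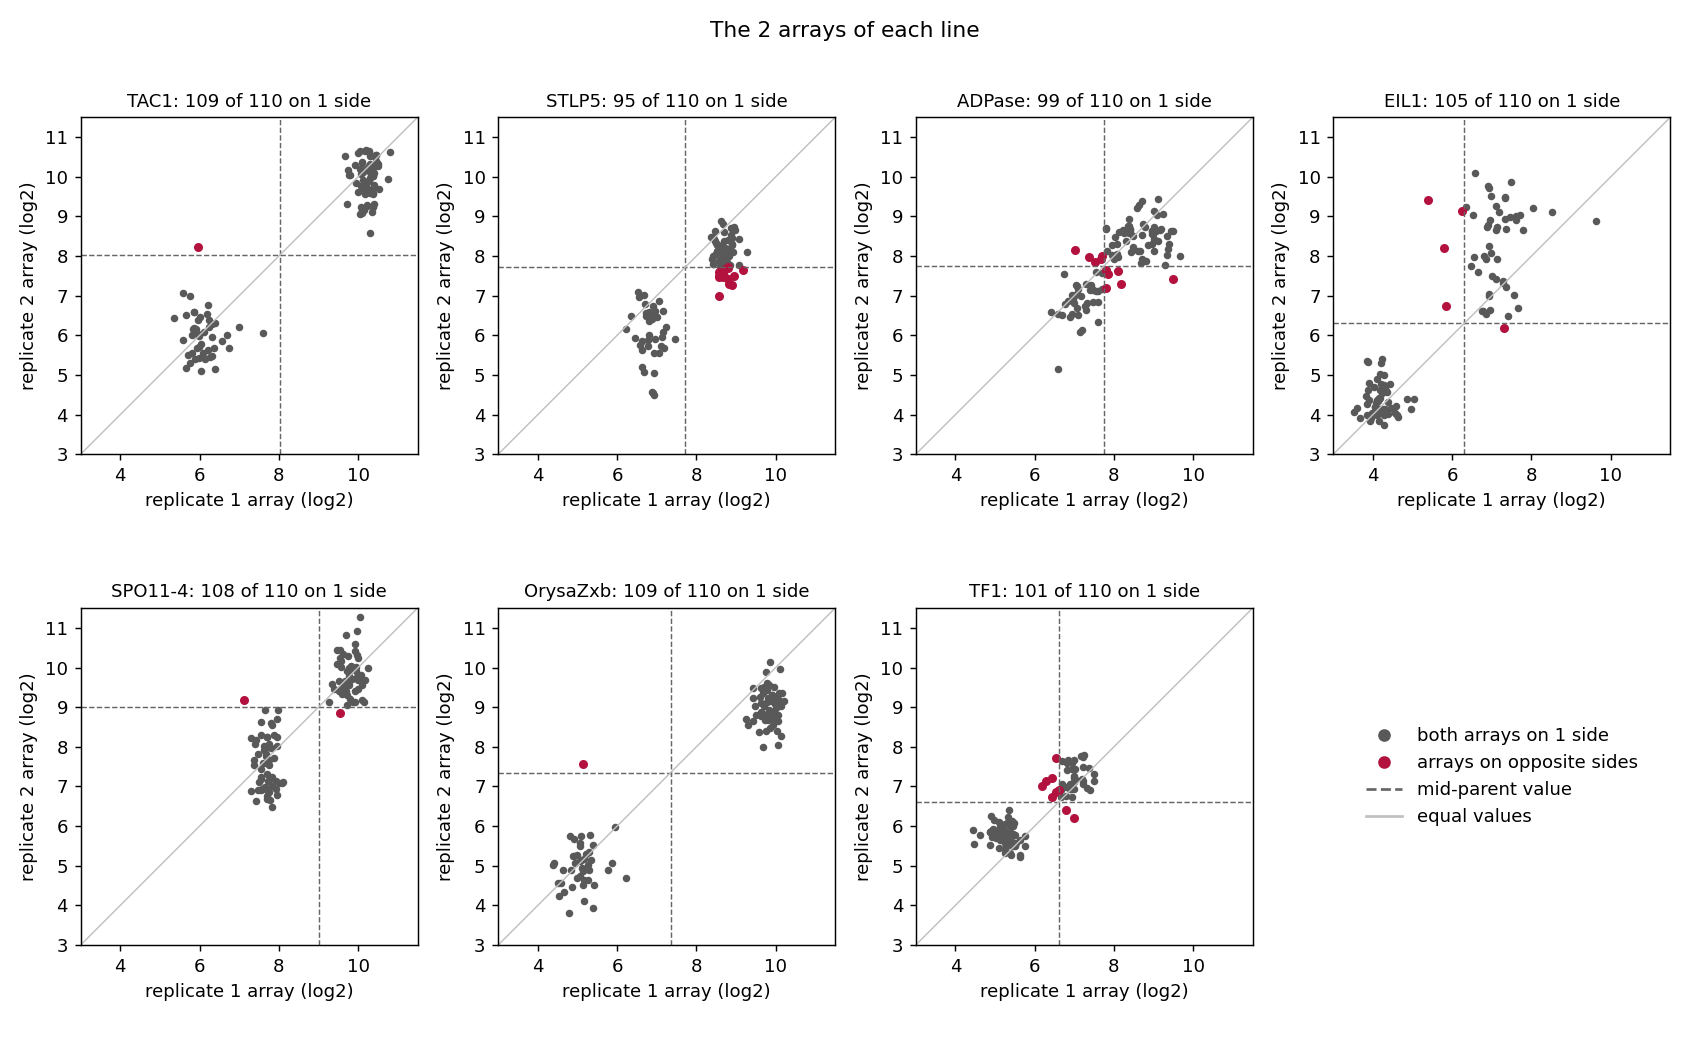
Replicate 2 against replicate 1 array of each of 110 lines on the log2 scale, with the mid-parent value of each gene (dashed) and the line of equal values (grey). Red points are lines whose arrays lie on opposite sides, 1 for TAC1 and OrysaZxb and 15 for STLP5, where all lie below the horizontal line.

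The genes also differed in level between the replicate numbers. The size of the within-line differences entered the repeatability by which the genes were chosen, so these values are descriptions with no test. In limma's fit 92.2% of all tested probe sets differed between replicate 2 and replicate 1 at an adjusted p under 0.05, so a difference here is the rule on these arrays. STLP5 was lower in replicate 2 by the largest amount of the 7 genes, a mean log2 difference of -0.73 (SE 0.0545), with 100 of 110 lines lower. EIL1 had a difference of 0.67 and TF1 of 0.42, with 90 lines higher for TF1. OrysaZxb had a difference of -0.51, ADPase of -0.23, TAC1 of -0.19 and SPO11-4 of -0.04. With each array centred on its median the difference of SPO11-4 was -0.17.

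Replicate 2 arrays were also more widely spread. The SD between lines was larger in replicate 2 for 92.4% of tested probe sets, with a median of 0.405 against 0.241. Within the classes it was larger for 6 of the 7 genes, for SPO11-4 0.605 against 0.220, for STLP5 0.518 against 0.211 and for EIL1 0.816 against 0.508. In the high class of EIL1 the replicate 1 median was 7.05 and the replicate 2 median 8.68, with replicate 2 values from 6.19 to 10.10. TF1 was the exception, with 0.317 in replicate 2 and 0.375 in replicate 1.

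Classes of different genes showed no association that passed the test. All 21 pairs of genes were compared by Fisher's exact test (two-sided) on the numbers of lines in each pair of classes, with Benjamini-Hochberg adjustment over the 21 pairs. No pair passed an adjusted p under 0.05 (lowest 0.314), and 2 had an unadjusted p under 0.05. For STLP5 and ADPase, on chromosomes 11 and 12, both were of the same parental class in 45 of 110 lines, the lowest number of any pair (phi -0.24, exact p = 0.015), where phi is the correlation of the classes. With replicate 1 arrays alone STLP5 and ADPase had a phi of -0.14 (exact p = 0.16), and with replicate 2 arrays alone -0.23 (exact p = 0.021). The classes of ADPase also have no natural boundary. For EIL1 and TF1 67 lines had the same class (phi 0.21, exact p = 0.0299). With replicate 1 arrays alone this pair reached phi 0.31 (exact p = 0.00195, adjusted 0.041), and with replicate 2 arrays alone phi 0.25 (exact p = 0.0107, lowest adjusted p of the 21 pairs 0.221), so its call depends on which arrays are used. A p above the threshold does not show that a pair is independent.

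Of the 21 pairs 2 share a chromosome in the annotation. ADPase and SPO11-4, both on chromosome 12, had the same class in 50 lines (phi -0.10, exact p = 0.336), and EIL1 and OrysaZxb, both annotated to chromosome 3, in 58 lines (phi 0.07, exact p = 0.56). Neither pair differed detectably from free combination. A shared chromosome does not mean that genes lie close together, and the distance between ADPase and SPO11-4 was not taken into account. The EIL1 probe set, however, followed genes of chromosome 1 and not of chromosome 3, as given below. Its pair with OrysaZxb therefore says little about a pair of genes on chromosome 3. TF1, on chromosome 1, is the gene whose pair with EIL1 had a phi of 0.21. Over all 7 genes the lines showed 65 of the 128 possible combinations of classes, and no combination was held by more than 4 lines. A line had from 1 to 7 genes of the Minghui 63 class with a median of 4, and 3 lines had all 7.

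Within the classes some genes still moved together. After the class means were taken out of the line means, SPO11-4 and STLP5 correlated at r = 0.52 (Spearman rho 0.54, 110 lines, permutation p = 1e-05 for each, the smallest that 100000 permutations can give, adjusted p = 0.00021 over 21 pairs). The relation held in replicate 1 arrays alone (r = 0.63) and in replicate 2 arrays alone (0.46), without the 2 lines farthest from the median (0.52) and with each array centred on its median (0.56). TAC1 and STLP5 correlated at r = 0.29 (rho 0.30, permutation adjusted p = 0.0285 and 0.0189), without the 2 farthest lines 0.31, but at 0.10 in replicate 1 and 0.48 in replicate 2. EIL1 and SPO11-4 passed by rank only (rho 0.26, permutation adjusted p = 0.0475, r = 0.24, adjusted p = 0.0727) and had r = -0.08 in replicate 1 and 0.33 in replicate 2, so these weaker relations did not hold in both replicate numbers. Levels of both genes of a pair come from the same arrays, and the part of the array in these correlations was not tested. In the other 18 pairs r ran from -0.18 to 0.18.

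**Figure D3:**
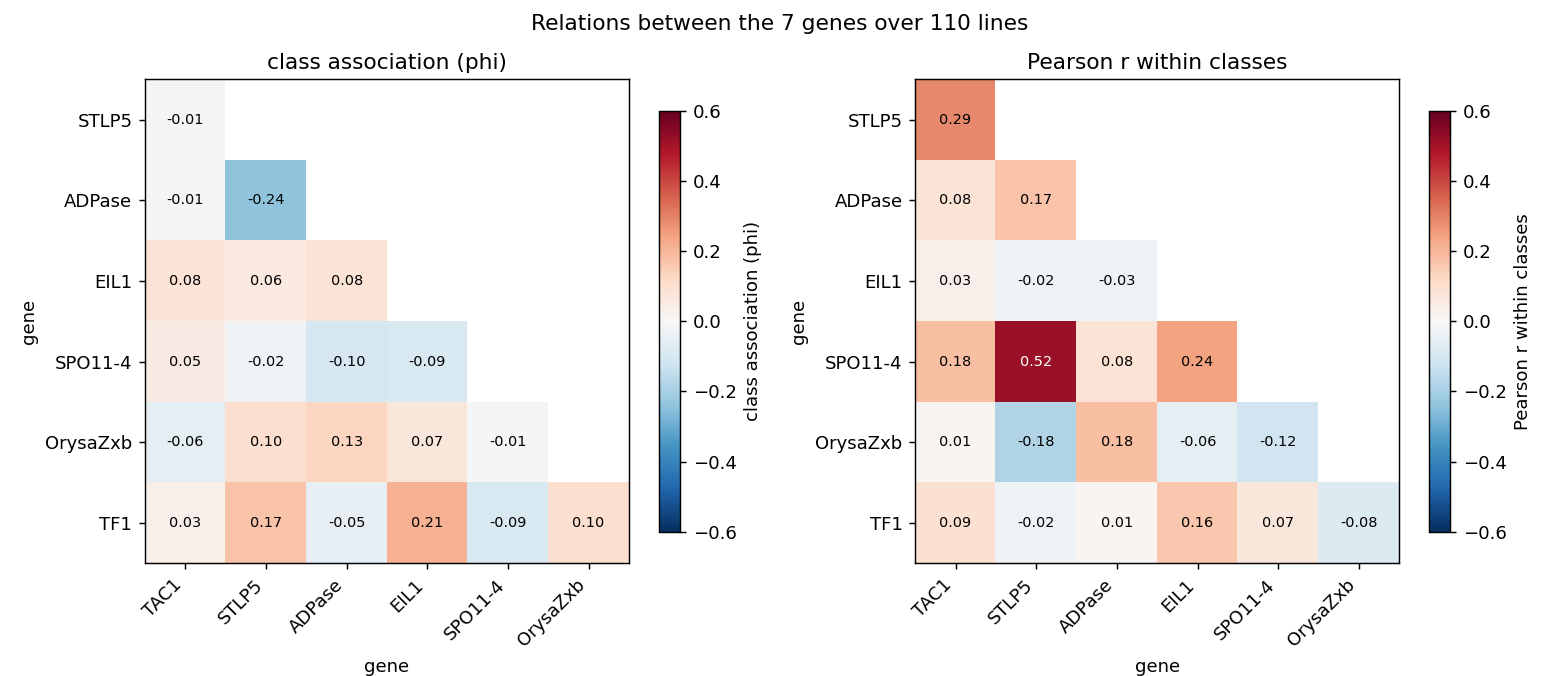
Association of classes (phi, left) and Pearson r of line means after subtraction of class means (right) for the 21 pairs of the 7 genes over 110 lines. The classes range from -0.24 to 0.21 and pass no adjusted test, while STLP5 and SPO11-4 stand apart within classes at 0.52.

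The genes most like each of the 7 in their pattern over the 110 line means were looked for among 14620 other genes. These correlations are descriptions, and their points share arrays and lines. For 6 of the 7 genes nearly all likeness lay on the gene's own chromosome. Of the genes with |r| of at least 0.5, 49 of 50 were on chromosome 9 for TAC1, 22 of 23 on chromosome 11 for STLP5, 4 of 4 on chromosome 12 for ADPase and 15 of 15 there for SPO11-4. The numbers were 28 of 29 on chromosome 3 for OrysaZxb and 69 of 70 on chromosome 1 for TF1. Between 4.21% and 14.8% of the compared genes lie on these chromosomes.

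EIL1 was the exception. Of 19 genes with |r| of at least 0.5, 18 were on chromosome 1 and 0 on chromosome 3, where the annotation places EIL1. The largest correlation with a gene of chromosome 3 was -0.41, at a distance of 927 genes, and the largest within 10 genes was -0.19. The gene most like it, LOC4325244 on chromosome 1, reached r = 0.92 (0.91 in replicate 1 and 0.87 in replicate 2) and measured 4.48 in Minghui 63 and 8.57 in Zhenshan 97. The next were LOC4324010 (0.88), LOC4324008 (0.88), LOC4324011 (0.87) and LOC9268634 (0.79), which with the first span 59 genes of the gene order and come after 97.1% of the genes of chromosome 1. TF1 lies on the same chromosome, 1210 genes before LOC4325244. The segregation of the EIL1 probe set thus followed genes at the end of chromosome 1 and not those around its annotated gene, and the cause was not tested.

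**Figure D4:**
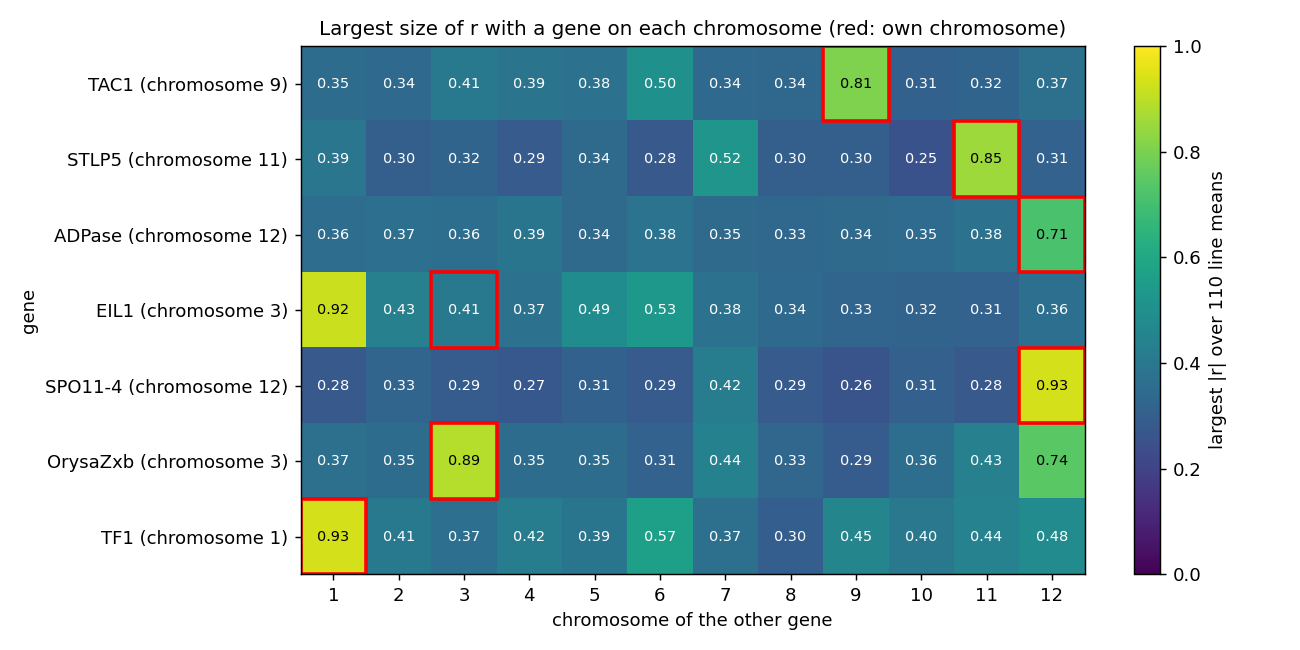
Largest |r| over 110 line means between each of the 7 genes (rows) and a gene on each chromosome (columns), with the chromosome of the gene itself framed in red. The framed value is the largest of its row for 6 genes, and for EIL1 it is 0.41 against 0.92 on chromosome 1.

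The likeness spread over long stretches of the gene order. For TAC1 the 5 most alike genes lay between 34 and 175 genes away and all ran against it, with r from -0.81 (LOC4347621, 34 genes away) to -0.78 (LOC4347546, listed as the beta-glucosidase gene BGLU32, 113 genes away). LOC4347495, 175 genes away, measured 4.60 in Minghui 63 and 9.03 in Zhenshan 97 (r = -0.80). Within 10 genes of TAC1, 9 genes were measured and none exceeded |r| of 0.20, so its immediate neighbours did not share its pattern. Of its 50 genes 33 ran against it and 17 with it.

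For STLP5 the most alike gene, LOC4350759, was 3 genes away (r = 0.85, 0.94 in replicate 1 but 0.51 in replicate 2) and measured 7.56 in Minghui 63 and 5.17 in Zhenshan 97. LOC4350706, 90 genes away, followed at 0.80 with 10.49 and 5.57. For ADPase only LOC4351290, 93 genes away, exceeded an |r| of 0.7 (r = -0.71), and LOC4351496, 188 genes away, reached 0.62. Within 10 genes of ADPase no gene exceeded 0.23. ADPase, the gene without separate classes, was thus also the one with the fewest like genes, 4 with |r| of at least 0.5.

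SPO11-4 had like genes on both sides close by. LOC4352850, 34 genes away, reached r = 0.93 (0.97 in replicate 1 and 0.82 in replicate 2), and LOC4352824, 2 genes away, 0.89 with 7.72 in Minghui 63 and 8.30 in Zhenshan 97. LOC4352839, 17 genes away and listed with the synonyms rcs1 and OAS-TL, a cysteine synthase, reached 0.70 with 11.32 and 11.61.

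For OrysaZxb the most alike genes were far away, LOC4333099 at 439 genes (r = 0.89) and LOC4333208 at 315 genes (0.87), while LOC4333437, 4 genes away, ran against it (-0.84, 9.27 in Minghui 63 and 8.55 in Zhenshan 97). LOC9268519 on chromosome 12 reached 0.74, but 0.78 in replicate 1 and 0.40 in replicate 2.

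TF1 had the most like genes of the 7 by count, but chromosome 1 also has the most compared genes. On its own chromosome 69 of 2171 compared genes were alike, a smaller share than the 49 of 785 for TAC1. LOC4327840, 47 genes away, reached r = 0.93 and measured 6.05 in Minghui 63 and 9.0 in Zhenshan 97, and LOC4327515, 244 genes away, reached 0.86 with 2.96 and 8.64. LOC4327956 (-0.85) and LOC4327891 (-0.84) ran against it. Of the 70 genes 40 ran with TF1 and 30 against it.

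**Figure D5:**
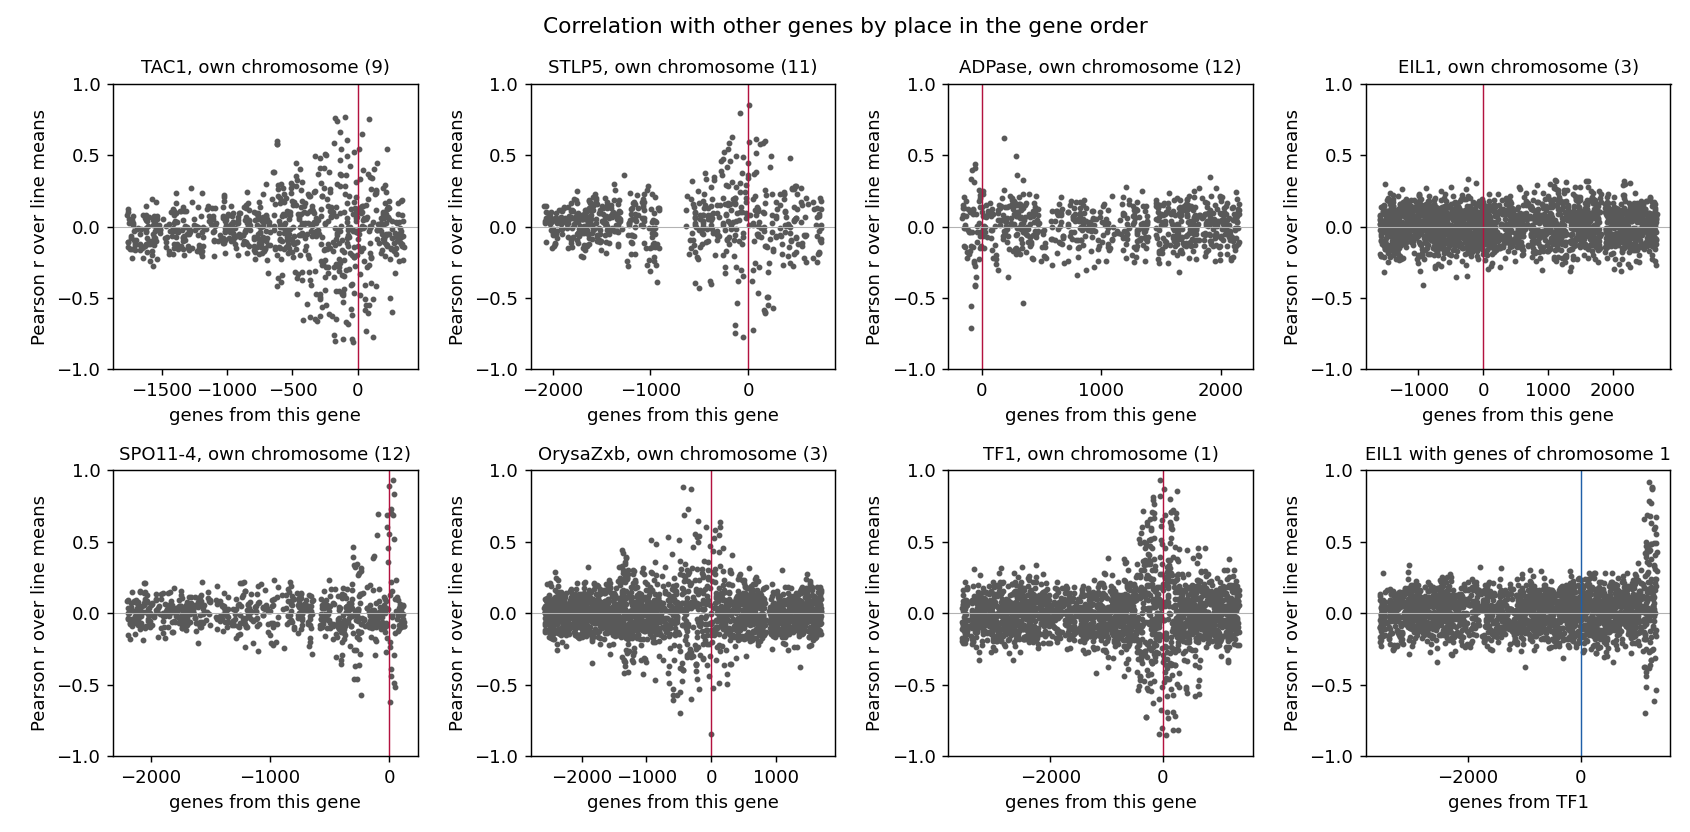
Pearson r over 110 line means of each of the 7 genes with the other measured genes of its chromosome, against the number of genes between them (red line, the gene itself), and of EIL1 with the genes of chromosome 1 (blue line, TF1). Within 10 genes |r| reaches 0.65 or more for STLP5, SPO11-4, OrysaZxb and TF1 and stays within 0.23 for TAC1, ADPase and EIL1. EIL1 stays within 0.41 on chromosome 3 and rises to 0.92 near the end of chromosome 1.

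The other genes of 5 related groups were measured to see whether the groups varied as their named gene did. In all 33 such genes were tested, of which 3 were higher and 1 lower in Minghui 63, beside 10.5% of all probe sets called, and 3 varied between the lines, beside 6.01%. With the replicate number as a block in the fit of the lines, 7 of the 33 varied, beside 4430 of the 27735 tested probe sets. These counts rest on few genes and lie near the background, so nothing is read from them about the groups.

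Among 5 other genes of shoot angle and gravitropism, 1 was lower in Minghui 63 and 0 varied between the lines by the F test (0 at an unadjusted p under 0.05). With the replicate block LA1, the gravitropism gene LAZY1, did (adjusted p = 4.98e-05). The gene lower in Minghui 63 was D14, the strigolactone receptor gene, at 9.64 ± 0.150 (SD, n = 3) for Minghui 63 and 10.30 ± 0.0702 for Zhenshan 97 (difference -0.67, limma adjusted p = 0.028). The call of D14 was lost without any 1 of 5 of the 6 parent arrays (adjusted p from 0.0555 to 0.133, all but Zhenshan 97 replicate 3). The median log2 difference of the group was 0.15, and 0.04 over all probe sets.

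Of 8 other genes for ethylene synthesis and signalling, among them EIN2, the receptor genes ETR2 and ERS1 and the ACC oxidase gene ACO1, 0 differed between the parents by limma (median log2 difference 0.32) and 0 varied between the lines (highest repeatability 0.205, ACO1), with 3.0 and 1.0 at an unadjusted p under 0.05. With the replicate block ACO1 varied between the lines (adjusted p = 0.0142). Of 10 other genes for meiotic recombination, which include SPO11-2, SPO11-3 and TOP6B, the B subunit of topoisomerase VI, 0 passed limma's parental test or the F test (median log2 difference 0.21, highest repeatability 0.234, MEL1), with 2.0 and 1.0 at an unadjusted p under 0.05. With the replicate block MEL1, an Argonaute gene of the germ line, varied between the lines (adjusted p = 1.36e-07). PAIR1, PAIR2, DMC1 and SDS were too low to be tested.

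Among 4 other genes for apyrases and nucleotide breakdown, the allantoinase gene ALN of purine breakdown was higher in Minghui 63, with 9.21 ± 0.0503 against 6.19 ± 0.529 (log2 difference 3.02, limma adjusted p = 0.000554). Its variation between the lines depended on the fit. It passed the F test narrowly (repeatability 0.254, adjusted p = 0.0487) and clearly with the replicate block (repeatability 0.696, adjusted p = 2.6e-16), and with each array centred on its median the call was lost (adjusted p = 1.0). NDPK1, a nucleoside diphosphate kinase gene, passed with the replicate block only (adjusted p = 0.0239). The other apyrase gene measured, APY2, passed neither test.

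Of 6 other class IV homeodomain-leucine zipper genes, 2 were higher in Minghui 63 and 2 varied between the lines. ROC1 on chromosome 8 was the only one to do both, with 9.78 ± 0.176 (SD, n = 3) in Minghui 63 against 8.66 ± 0.234 in Zhenshan 97 (log2 difference 1.11, limma adjusted p = 0.00896), the opposite direction to TF1. It varied strongly between the lines, from 8.57 to 10.48 (repeatability 0.818, F test adjusted p = 3.73e-26). ROC6 was higher by 0.84 (adjusted p = 0.0362) and did not vary between the lines (repeatability -0.473), and its call was lost without any 1 of the 6 parent arrays (adjusted p from 0.0602 to 0.0991). ROC2 varied between the lines (repeatability 0.283, adjusted p = 0.0479) but not with each array centred on its median (adjusted p = 0.169).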

How the data were processed

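Affymetrix Rice arrays of 110 lines and 2 parents were used as deposited, as log2 values per probe set and array. Per the submitters' processing notes RMA and affy were used, with versions and roles not given in the sources used here. Each of the 226 columns had a sample. Controls and probe sets with a mean under 5 were left out, leaving 27735. Of 57381 probe sets 22436 had 1 gene in the platform annotation, 95 several and 34850 none. Gene order came from the start positions in the ASM3414082v1 table, and distances are given in genes, with no coordinates printed. No sequence is shown.

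The genes and lists were chosen with earlier results of these data known, and 3 list entries matched through another gene's synonym were removed for identity.

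Parents were compared with limma 3.58.1 in R 4.3.3 (files were read with data.table, version 1.17.8), lines with an F test whose residual variance limma moderated, replicate numbers with limma on within-line differences, each with Benjamini-Hochberg adjustment over all tested probe sets. A list gene was read from its probe set with the highest mean. Classes, Fisher's exact tests, permutation tests (100000) and correlations used Python 3.11.15, numpy 2.4.6, pandas 2.3.3 and scipy 1.17.1; figures used matplotlib 3.10.9. Fits were tested on simulated data. Genes named beside the 7 were the 5 with the largest |r| per gene, those within 10 genes with |r| of at least 0.7, and up to 4 called members per list and test; not all are printed. Line RIL103 was left out, and thresholds set within each replicate number, as alternatives chosen after the data were seen.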

Additional observations from a re-analysis of the deposited data

How the results depend on the processing

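Class shares and array agreement were recomputed under 77 combinations of gene and setting, and 70 moved by less than their interval. For STLP5 the share of the Minghui 63 class was 64.5% with replicate 1 and 50.9% with replicate 2 arrays alone. Agreement for STLP5 was 96.4% with the 2-means threshold, 78.2% with arrays centred on their medians, 97.3% with the replicate block and 98.2% with thresholds within replicate numbers, and for TF1 97.3% and 98.2% with the first and last of these. One replicate number alone gave from 0 to 1 associated pairs, and the other settings 0. Parental calls fell from 2917 to 1393 with all 226 arrays in the fit and to 934 with a replicate block, and ran from 1164 to 3146 without 1 parent array. Line calls were 768 with a mean of at least 7, 2655 with no filter and 4430 with a replicate block, under which 7 rather than 3 list genes varied between the lines and the repeatability of STLP5 rose to 0.837 and of TF1 to 0.862. Replicate shift calls were 13793 and 51969 with the stricter and no filter, which test fewer and more probe sets. Elsewhere the cause was not tested. Deviations of line arrays with the same replicate number correlated with a median of 0.71 and a minimum of -0.16 (99.4% of pairs above 0.1), so line arrays of 1 number share a shift, and those of the parents at -0.31, -0.07 and -0.39. The fits used above have no block, so in the fit of the lines this shared shift counts as variation within lines. Their line calls, 1668 against 4430 with the block, may therefore be too few. No estimate for a single gene reversed its direction. Of the 298 comparisons, those of shares, agreement, counts and correlations with the most alike genes were not scored for a reversal. Several settings, such as the filters and the block, leave a parental estimate unchanged by design.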
